A study of Homo sapiens with 4 samples.

Results

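The intergenic regions lost after all-trans retinoic acid (ATRA) were stretches of open chromatin that had an ATAC-seq peak in both libraries of control HL-60 cells and in neither library of ATRA-treated cells. They were chosen by the peak lists themselves: the peaks of all 4 libraries were merged wherever they shared at least 1 bp, and a region was retained when its centre lay outside every protein-coding gene body and outside every promoter, taken as 1 kb upstream to 100 bp downstream of a transcription start site (TSS). Of 78063 merged regions, 2633 (3.37%) were lost in this sense, and of the 34169 intergenic regions 1270 (3.72%) were lost. The number depended on the libraries used, with 3352 without ATRA replicate 2, 3538 without control replicate 1 and 3004 without control replicate 2, where the list left in a group stood for that group. These 1270 regions are described here. A further 1244 lost regions lay in gene bodies (lost genic regions) and 119 in promoters. For comparison, 3229 intergenic regions (9.45%) had a peak in both ATRA libraries and in neither control library (gained), and 8524 had a peak in all 4 (kept). A region without a listed peak may still have been open below the score limit of the lists. Peak presence and peak scores defined these classes, so counts and scores are descriptions and were not tested.

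HL-60 is an established human promyelocytic leukemia line. Treated cultures grew for 4 days with 1 µM ATRA, renewed at day 2, and control cultures were given an equal volume of ethanol, the solvent of ATRA. Both groups were the same line, with no genetic change given in the labels, and had 2 replicates each. The lists hold open chromatin and no expression, so the identity of the line was not checked against marker expression. The labels do not say whether replicates came from separate cultures, while the text of the study calls them independent biological replicates. The peak lists held 42081 and 45903 peaks in control replicates 1 and 2, and 43494 and 63541 peaks in ATRA replicates 1 and 2. ATRA replicate 2 thus had the longest list, and its peaks were also the widest, with a median of 416 bp against 291 to 328 bp in the other lists. The lists hold no read counts, so sequencing depth was unknown.

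ATRA drives HL-60 cells from a promyelocyte-like state towards granulocytes. Open chromatin far from promoters often marks enhancers, where transcription factors bind short DNA motifs. GATA factors, such as GATA2, act in hematopoietic stem and progenitor cells and in the mast cell, eosinophil, megakaryocyte and erythroid lineages, whereas PU.1 and C/EBP factors direct granulocyte and monocyte genes and RUNX factors act across blood cells. CTCF is an architectural protein at chromatin loop anchors.

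The sequences below were read from the plus strand of GRCh37 (hg19), and each is a short stretch about 1 motif of a lost intergenic region, which is named by the gene with the nearest TSS. The first set shows regions with the GATA motif (AGATAA or TGATAA on either strand). They are some of those that ranked highest by peak score in the control lists. The motif was chosen because it was more frequent in the lost than in the gained and kept intergenic regions. Capitals mark the GATA motif nearest the region centre. On the opposite strand the motif reads TTATCT or TTATCA. The HHIPL2 and ANXA1 stretches each hold a further GATA motif in small letters.
IRF2BP2 region, chr1:234694207-234694307: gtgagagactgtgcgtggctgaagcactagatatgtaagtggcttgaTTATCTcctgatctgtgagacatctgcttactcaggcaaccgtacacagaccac
HHIPL2 region, chr1:222499616-222499716: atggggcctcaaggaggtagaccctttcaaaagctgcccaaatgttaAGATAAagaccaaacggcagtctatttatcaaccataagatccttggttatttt
ANXA1 region, chr9:75972684-75972784: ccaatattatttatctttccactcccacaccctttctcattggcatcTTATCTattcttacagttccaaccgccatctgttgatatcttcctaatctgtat

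In the next sequence, from another highly ranked region, the GATA motif stood beside an E-box half-site, with CTG, then 8 bases, then the GATA motif. This composite is the arrangement known to be bound jointly by GATA factors and TAL1. Capitals mark the whole composite, the 8 bases in between included. The B3GALT2 region carried it on the minus strand.
B3GALT2 region, chr1:193655291-193655391: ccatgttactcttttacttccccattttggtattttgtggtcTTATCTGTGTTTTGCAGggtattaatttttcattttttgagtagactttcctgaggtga

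The last set shows some of the highest-ranked lost regions that had a PU.1, RUNX or CEBP motif and no GATA motif in the 200 bp about their centre. Capitals mark RUNX (AACCACA) in the BCL7A and PHLDA1 regions and CEBP (TTGCNNAA, where N is any base) in the SLC20A1 region.
BCL7A region, chr12:122442290-122442390: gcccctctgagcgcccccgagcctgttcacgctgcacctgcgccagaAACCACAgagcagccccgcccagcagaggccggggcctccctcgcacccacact
PHLDA1 region, chr12:76178485-76178585: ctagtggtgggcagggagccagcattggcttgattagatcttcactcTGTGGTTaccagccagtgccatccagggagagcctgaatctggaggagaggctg
SLC20A1 region, chr2:113422763-113422863: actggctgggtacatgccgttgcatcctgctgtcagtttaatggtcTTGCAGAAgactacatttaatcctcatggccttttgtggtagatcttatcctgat

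The GATA motif was found in the central 200 bp of 591 of the 1270 lost intergenic regions, which is 46.5% (95% Wilson interval 43.8 to 49.3). It was found in 15.1% of gained, 19.6% of kept and 21.5% of all intergenic regions. The lost regions exceeded the gained regions by 31.4 percentage points (95% Newcombe interval 28.4 to 34.4), a ratio of 3.08, and the kept regions by 27.0 points (24.1 to 29.8). Lost genic regions were much closer, with 43.1%, and the difference of 3.45 points had an interval that included 0 (-0.439 to 7.32). Sequence was not used to choose the regions, but regions are not biological replicates, so all these intervals cover counting over regions only and no p-value is attached to them. The share rested in part on single libraries: without ATRA replicate 2, whose list removes the most regions, the GATA share of the lost regions was 31.7% and the excess over kept regions 11.2 points and over gained regions 15.9 points, and without control replicate 1 these values were 32.5%, 13.6 and 16.7 points. It also depended on the window: in whole regions, which are wider in the kept class, the excess over kept regions was 8.49 points.

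The GATA share was also taken over all intergenic peaks of each library, without use of the rule. These peaks include those of the lost and gained regions, so the share is not independent of the class differences above. It was 25.2% in control replicate 1, 22.3% in control replicate 2, 18.6% in ATRA replicate 1 and 18.4% in ATRA replicate 2. Both control libraries were above both ATRA libraries, with means of 23.8% ± 2.10 (SD, n = 2) and 18.5% ± 0.139 (SD, n = 2). The difference of 5.26 points had a p of 0.33 in a two-sided exact permutation test over the libraries, the smallest value that 2 libraries against 2 can give. With whole peaks searched in place of the central 200 bp, the difference was 0.396 points with a p of 1.00 in the same exact test.

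**Figure D1:**
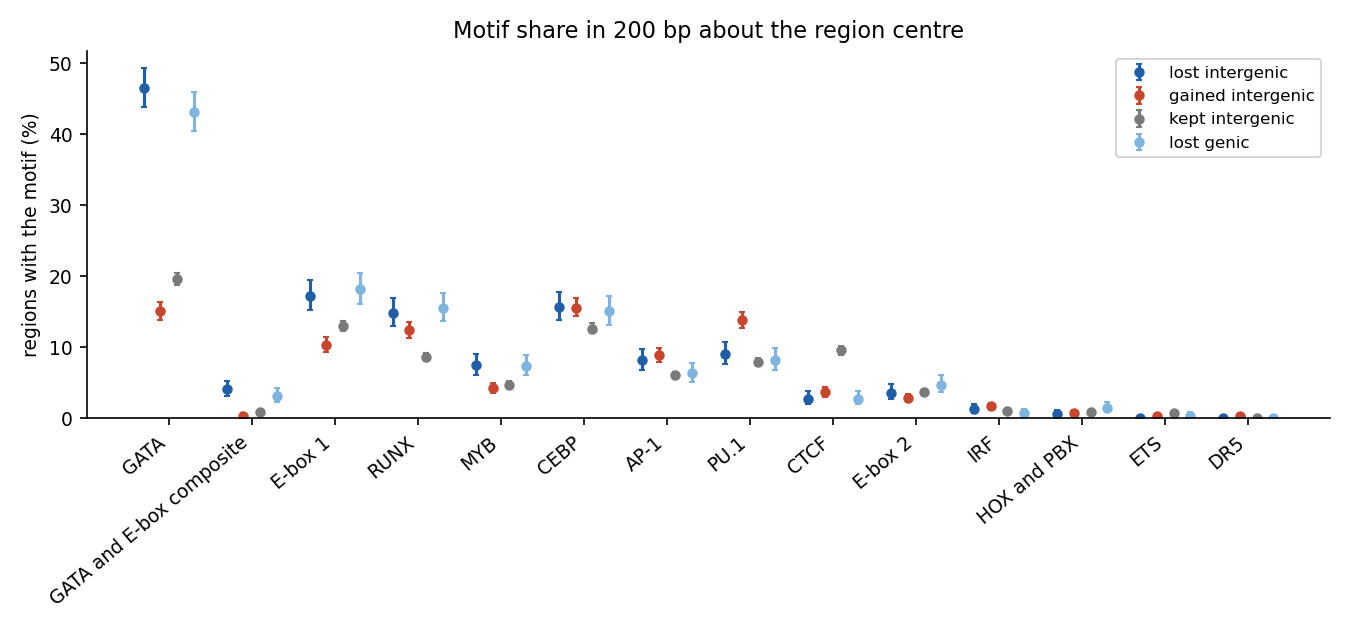
Share of regions (%) with each of the 14 motifs in the 200 bp about the region centre, for lost, gained and kept intergenic regions and lost genic regions. E-box 1 is CAGCTG and E-box 2 is CACGTG. Points are shares and bars are 95% Wilson intervals. GATA reached 46.5% in the lost intergenic regions and 43.1% in the lost genic regions, against 15.1% in the gained and 19.6% in the kept regions.

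GATA motifs also occurred in numbers in the lost regions. A single GATA motif was found in 397 of them, 2 in 150 and 3 or more in 44. Together 194 regions, 15.3% (13.4 to 17.4), had at least 2, compared with 1.67% of gained and 3.68% of kept regions. Lost genic regions were closer, with 11.3% (9.62 to 13.1). The form AGATAA was present in 31.1% of lost regions and TGATAA in 22.8%, and in lost genic regions these shares were 28.4% and 19.5%. The GATA motif followed by G was present in 24.2% of lost regions against 3.62% of gained and 6.95% of kept regions. In lost genic regions it was present in 20.6%. The GATA and E-box composite was rarer, in 4.09% of lost regions against 0.403% of gained regions (difference 3.69 points, 2.69 to 4.94, ratio 10.2) and 0.845% of kept regions (difference 3.25 points, 2.27 to 4.50). Lost genic regions held the composite in 3.14%, and the interval of that difference included 0 (-0.516 to 2.45). Every composite holds a GATA motif, so both counts share regions.

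The motifs clustered at the centre of the lost regions. Within 50 bp of the centre there were 3780 GATA motifs per Mb of sequence, compared with 1402 per Mb at 300 to 500 bp from the centre, a ratio of 2.70 (95% interval 2.40 to 3.03). The ratio was 0.546 (0.479 to 0.624) in the gained and 0.884 (0.826 to 0.947) in the kept regions, where the centre held fewer GATA motifs than the flanks. The letters of the GATA motif written backwards, which have the same base composition, gave 0.826 (0.686 to 0.994) in the lost regions. PU.1 motifs were concentrated at the centre in all 3 classes, with ratios of 12.0 in the lost, 14.7 in the gained and 9.90 in the kept regions.

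**Figure D2:**
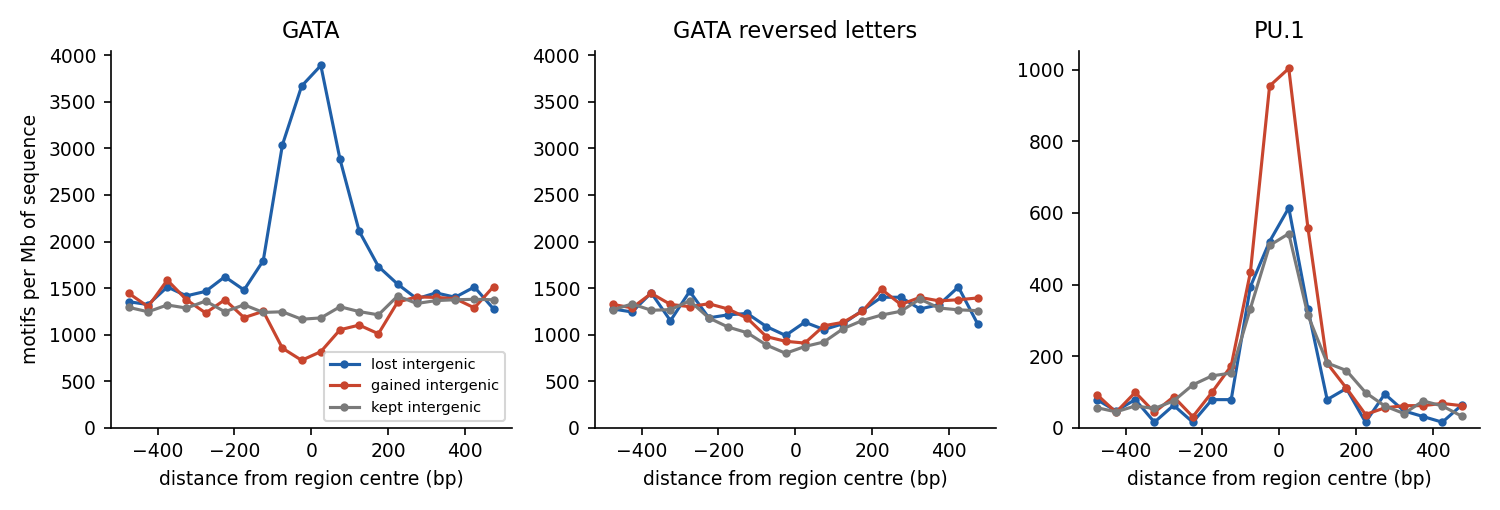
Motifs per Mb of sequence in 50 bp steps of distance from the region centre (bp) for GATA, for the reversed letters of GATA, and for PU.1, in lost, gained and kept intergenic regions. GATA formed a central peak in the lost regions alone among the 3 classes drawn (3780 per Mb within 50 bp of the centre against 771 in the gained and 1173 in the kept regions), the reversed letters formed none, and PU.1 peaked in all 3 classes. The PU.1 panel has its own vertical scale.

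The GATA excess over gained and kept regions was seen in every tercile of base composition. The lost regions had a median GC content of 45.5%, compared with 45.0% in the gained and 47.5% in the kept regions. In the GC-poor tercile of the regions the GATA share was 62.1% in lost against 22.6% in gained and 31.6% in kept regions. It was 48.1% against 13.4% and 22.8% in the middle tercile, and 25.5% against 5.76% and 8.07% in the GC-rich tercile. The reversed letters of GATA were found in 18.5% of lost, 16.9% of gained and 14.9% of kept regions. The last difference, 3.65 points (1.47 to 6.0), was small beside that of the motif itself.

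Without any list of known motifs, all 2080 possible 6-base words, each counted with its reverse complement, were ranked by the share of lost regions that held them minus the share of gained or of kept regions. AGATAA stood first against both classes (31.1% of lost, 8.98% of gained and 11.4% of kept regions). CTTATC was second against both, with 25.7% of lost regions, and TGATAA came next. The word with the greatest deficit against gained regions was GAGGAA, the core of the PU.1 motif, which was found in 31.7% of lost and 47.4% of gained regions, while kept regions had 31.8%.

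Among the motifs of other blood transcription factors, RUNX (AACCACA) was found in 14.9% of lost regions, against 12.4% of gained (difference 2.53 points, 0.330 to 4.86) and 8.66% of kept regions (6.22 points, 4.27 to 8.37). The motif of MYB (CAACTGNC or TAACTGNC), a factor of immature blood cells, was found in 7.48% of lost against 4.27% of gained and 4.74% of kept regions, and both intervals lay above 0. The E-box CAGCTG was found in 17.3% of lost, 10.4% of gained and 13.0% of kept regions. PU.1 (GAGGAAGT) was found in 9.06% of lost and 13.8% of gained regions, a difference of -4.76 points (-6.67 to -2.70; -2.60 points without control replicate 2), but in 7.94% of kept regions, where the interval of the difference included 0 (-0.461 to 2.91). CEBP (TTGCNNAA) was found in 15.7% of lost and 15.6% of gained regions, with a difference between -2.26 and 2.46 points, and in 12.6% of kept regions. AP-1 (TGACTCA or TGAGTCA) was found in 8.19% of lost, 8.86% of gained and 6.05% of kept regions. CTCF was found in 2.76% of lost and 3.65% of gained regions but in 9.60% of kept regions, a difference of -6.84 points (-7.84 to -5.63). The RUNX difference from gained regions was 4.32 points in the GC-poor, 3.21 in the middle and 0.196 in the GC-rich tercile. Its interval included 0 in the middle and GC-rich terciles. For PU.1 the difference from gained regions was -5.99, -4.51 and -2.81 points in the same order, and its interval included 0 in the GC-rich tercile.

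Across the 14 motifs searched, the interval of the difference lay above 0 for 5 and below 0 for 2 against gained regions, and above 0 for 7 and below 0 for 2 against kept regions. Against lost genic regions it included 0 for 12 of 14, and the 2 exceptions, ETS (CCGGAAGT) and the HOX and PBX motif (TGATTTAC or TGATTTAT), were less frequent in the lost intergenic regions. The direct repeat DR5, a known binding element of retinoic acid receptors, was found in 0 of 1270 lost regions, which allows a share of up to 0.236% (3 counts of the total; the Wilson upper limit was 0.302%), and in 0.341% of gained regions. ETS was likewise found in 0 of the lost regions and in 0.739% of kept regions, but its letters written backwards were also less frequent in lost than in kept regions (0.236% against 0.809%) and lost genic regions (1.29%). The other motifs, the E-box CACGTG (3.62% of lost regions), IRF (GAAACTGAA or GAAAGTGAA, 1.26%) and HOX and PBX (0.551%), had differences from gained and kept regions whose intervals included 0. Of all intergenic regions, 9.12% held RUNX, 4.67% MYB, 12.2% the E-box CAGCTG, 9.59% PU.1, 13.2% CEBP, 6.45% AP-1, 7.01% CTCF, 0.784% the composite, 0.404% ETS, 0.120% DR5, 3.11% the E-box CACGTG, 1.31% IRF and 1.03% HOX and PBX. Motifs were matched on both strands by their letters alone, and a match does not show that a factor was bound.

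The motifs were also counted together within each lost region. These counts were made for lost regions alone, so whether they differ from other intergenic regions was not tested. None of the 14 was present in 272 (21.4%). Of GATA, PU.1, RUNX and CEBP, 441 regions had none, 590 had 1, 213 had 2, 26 had 3 and 0 had all 4. Lost regions with a GATA motif had the RUNX motif in 14.7% and those without it in 15.0%, and for PU.1 these shares were 9.98% and 8.25%, with intervals of the difference that included 0 in both cases. CTCF was an exception, with 1.18% of lost regions with GATA and 4.12% of those without (difference -2.94 points, -4.81 to -1.17).

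The lost regions made up a minor part of the intergenic regions with peaks in both control libraries. Of 12115 such regions, 8524 (70.4%) had a peak in both ATRA libraries, 2058 (17.0%) in ATRA replicate 2 only, 263 (2.17%) in ATRA replicate 1 only and 1270 (10.5%) in neither. The GATA share was 46.5% in the regions with no ATRA peak and 46.0% (40.1 to 52.0) in those with a peak in ATRA replicate 1 only. It was 22.5% (20.7 to 24.4) in those with a peak in ATRA replicate 2 only, near the 19.6% of kept regions. The CTCF share was 2.76%, 4.18%, 13.3% and 9.60% for no ATRA list, ATRA replicate 1 only, ATRA replicate 2 only and both. Regions that the longer list of ATRA replicate 2 removed from the lost class were thus closer to kept regions in both motifs. Whether the depth of that library had a part in this was not tested.

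The control replicates were not alike in this respect either. Regions with a peak in control replicate 1 alone, of all 4 lists, held GATA in 42.3% of 1714, and regions with a peak in control replicate 2 alone in 25% of 2219. Regions with a peak in a single ATRA library held it in 18.7% for replicate 1 and 17.8% for replicate 2.

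**Figure D3:**
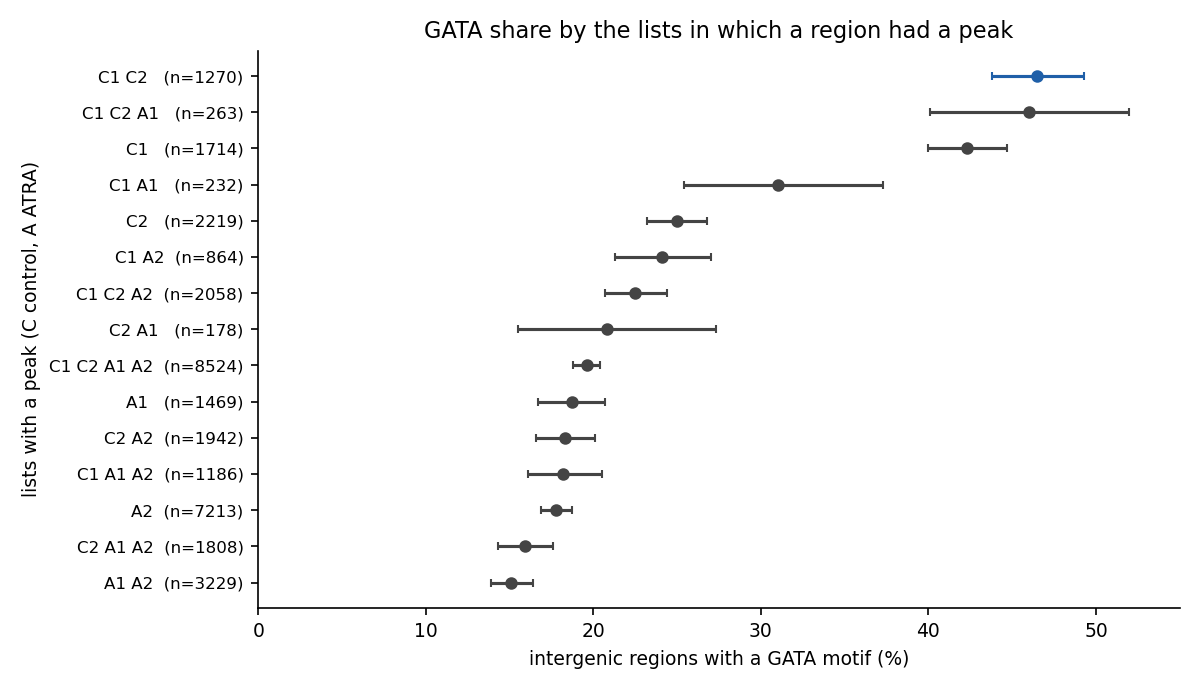
Share of intergenic regions (%) with a GATA motif for each combination of lists with a peak (C1 and C2, control replicates; A1 and A2, ATRA replicates; n, number of regions). Points are shares and bars 95% Wilson intervals. The lost regions (C1 C2, blue) had the highest share, 46.5%, next to 46.0% for C1 C2 A1, and the gained regions (A1 A2) the lowest, 15.1%.

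Peak scores were ranked within each control list as percentiles, where 100 is the highest score. These values helped to choose the regions, through the score a peak needed to be listed, and are given as a description. The lost regions had a median percentile of 37.9 in control replicate 1 (quartiles 19.1 and 63.0) and 39.3 in control replicate 2 (20.8 and 60.6). Their scores had a median of 82.3 in control replicate 1 and 78.2 in control replicate 2, with highest values of 574 and 408. Lost genic regions ranked much the same, with median percentiles of 39.1 and 38.5. Kept regions ranked higher, with median percentiles of 59.8 and 67.8. Strong peaks were few among the lost regions: 17 (1.34%) were in the top 10% of the list of control replicate 1, 26 (2.05%) in the top 10% of control replicate 2 and 10 in both. For control replicates 1 and 2 these shares were 0.965% and 1.29% in lost genic and 9.71% and 13.5% in kept regions. Lost regions were also narrower, at 355 bp in the median, compared with 416 bp for gained and 557 bp for kept regions. Lost genic regions had a median width of 352 bp and all intergenic regions 380 bp. A region spans all peaks merged into it, and kept regions join peaks of more lists than lost regions. Gained and kept regions also include peaks of ATRA replicate 2, which were the widest. The widths thus depend in part on how the classes were defined, and a difference beyond this was not tested. The percentiles of both control lists were related across the 1270 regions (Spearman's rho 0.442, Pearson's r 0.474, a description across regions of the same pair of libraries), less closely than in kept regions (rho 0.653). They differed by a median of 16.4 percentile points, and by over 30 in 307 regions (24.2%).

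Higher-ranked lost regions held the GATA motif more often. The share was 38.5% (34.0 to 43.3) in the tercile with the lowest mean percentile, 45.2% (40.5 to 49.9) in the middle tercile and 55.9% (51.1 to 60.5) in the highest tercile. The composite followed the same order, with 1.65%, 3.07% and 7.55%, whereas CTCF went from 4.73% through 2.84% to 0.708%. Because lost regions ranked below kept regions, both were also compared within the same ranges of mean percentile, up to 28.5, from 28.5 to 49.2 and above. Kept regions held GATA in 16.4%, 18.3% and 20.5%, so the excess of the lost regions was 22.1 points (16.9 to 27.4), 26.8 points (21.8 to 31.9) and 35.4 points (30.6 to 40.2).

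**Figure D4:**
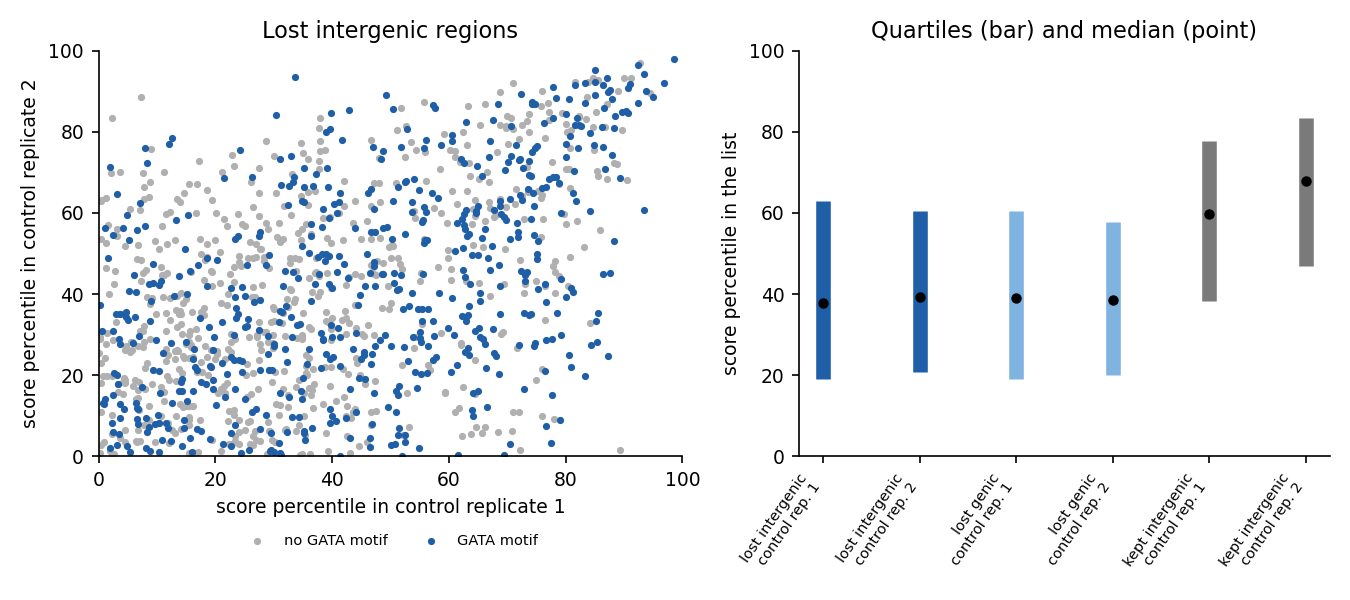
Left, score percentile of each of the 1270 lost intergenic regions in control replicates 1 and 2, coloured by the presence of a GATA motif. Right, median (point) and quartiles (bar) of the score percentile in each control list for lost intergenic, lost genic and kept intergenic regions. The lost intergenic regions spread over the whole range with medians of 37.9 and 39.3, below the kept regions at 59.8 and 67.8. Lost genic regions had medians of 39.1 and 38.5.

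Some regions lay close to the limits of the rule. In 224 lost regions (17.6%) the lower of both control scores was under 55, where the lists begin at 50.0. An ATRA peak lay within 100 bp of the edge of 21 lost regions and within 1000 bp of 146 (11.5%), and the median gap to the nearest ATRA peak was 8985 bp. Just outside the rule, of the 2058 regions with a peak in ATRA replicate 2 only, 123 (5.98%) had an ATRA score under 55, and their median ATRA score was 96.9. Of the 263 with a peak in ATRA replicate 1 only, 24 (9.13%) had an ATRA score under 55, with a median of 69.3.

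The lost regions lay about as far from protein-coding TSS as intergenic regions did in general. The median distance of lost regions to the nearest protein-coding TSS was 62288 bp (95% interval 57145 to 70671), with quartiles of 21891 and 197794 bp. Gained regions had a median of 58973 bp (54185 to 62706) and kept regions 55126 bp (52782 to 57372). The intervals of all 3 classes overlapped. All intergenic regions together had a median of 63439 bp (62093 to 64908). Of lost regions 6.30% were within 5 kb of a TSS, while 55.4% were over 50 kb, 39.6% over 100 kb and 116 regions (9.13%) over 500 kb away. For all intergenic regions these shares were 5.75%, 55.7%, 39.6% and 10.5%. The region lay upstream of its nearest TSS, with respect to the strand of that gene, in 816 cases (64.3%), compared with 63.4% of gained and 61.0% of kept regions. The GATA share was 43.5% (38.9 to 48.3) in the tercile nearest to a TSS, up to 31639 bp, 46.3% (41.6 to 51.1) in the middle tercile and 49.8% (45.0 to 54.5) in the farthest tercile, and the intervals overlapped.

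**Figure D5:**
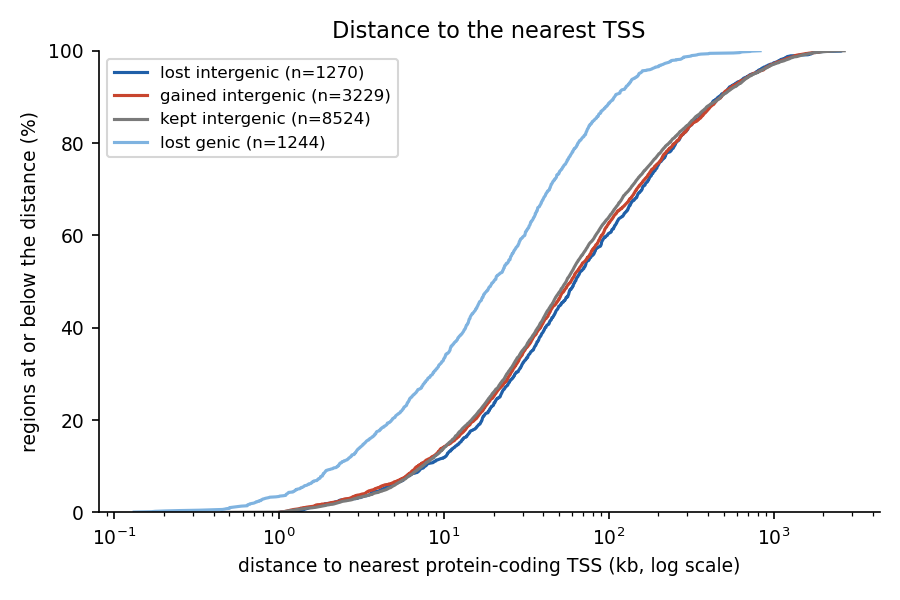
Cumulative share of regions (%) against distance to the nearest protein-coding TSS (kb, log scale) for lost, gained and kept intergenic and lost genic regions. The curves of the 3 intergenic classes run close together, with medians of 62288, 58973 and 55126 bp, and lost genic regions are nearer, with a median of 20086 bp.

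Many of these regions were intergenic only with respect to protein-coding genes. Of the lost regions, 367 (28.9%) lay in the body of an annotated lncRNA gene, compared with 28.4% of gained and 29.1% of kept regions. Within 1 kb of a lncRNA TSS lay 47 lost regions (3.70%, 2.79 to 4.89), against 4.65% (3.97 to 5.43) of gained and 9.60% (8.99 to 10.2) of kept regions. When TSS of all annotated transcripts were used, the median distance of the lost regions was 14739 bp.

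Most lost regions had no other lost region nearby. Another lost intergenic region lay within 50 kb of 175 (13.8%, 12.0 to 15.8; 28.2% without control replicate 1, 25.5% without ATRA replicate 2 and 24.7% without control replicate 2, with more regions in the class), whereas 605 (47.6%) had a kept intergenic region and 298 (23.5%) a gained one within that distance. The classes differ in size, so these shares cannot be set against each other as a measure of clustering. In runs of neighbours no more than 50 kb apart, 1095 regions stood alone, 68 runs had 2, 9 had 3 and 3 had 4. A run of 4 spanned 66380 bp upstream of ITGA4, which encodes the integrin alpha 4 chain of leukocytes. Its regions had mean percentiles from 39.8 to 87.0, 16180 to 81838 bp from the TSS, none had a GATA motif, and 3 kept regions and 1 gained region lay between them. A second run of 4 covered 63441 bp between ABTB2 and CAT, the gene of catalase, with 2 regions that held GATA and mean percentiles from 11.6 to 55.6. The last such run lay 392417 to 437671 bp from TSN, with 1 region that held GATA and mean percentiles from 42.9 to 77.4.

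The 10 lost regions with the highest mean percentile included 6 with a GATA motif, 1 with RUNX and the E-box CAGCTG but no GATA, and 3 with none of the 14 motifs. The first was a region of 1122 bp, chr1:234693739-234694860, 50971 bp downstream of the TSS of IRF2BP2, a transcriptional corepressor. Its score was 574 in control replicate 1 and 408 in control replicate 2, at percentiles 98.5 and 97.9, and it held GATA, CEBP and MYB motifs. The second lay 37683 bp upstream of SOD3, the extracellular superoxide dismutase, at a mean percentile of 94.9, and had none of the motifs.

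Among the others, the region beside HHIPL2 held 2 GATA motifs, at percentiles 92.4 and 96.5. That beside ANXA1, which encodes the anti-inflammatory protein annexin A1, also held 2 GATA motifs and was at 93.8 and 90.1, and lay 200205 bp from the TSS. The B3GALT2 region, 499575 bp upstream of its TSS, was at 93.5 and 94.2 and held the composite printed above. The regions near BCL7A (mean percentile 92.2), ROPN1L (92.1) and ST6GAL1 (91.6), a sialyltransferase gene, had no GATA motif. By the rule, none of the 10 had a peak in an ATRA library.

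The GATA2 and ZBTB16 loci, each taken as the gene and 150 kb upstream, held 1 and 3 lost intergenic regions. The GATA2 region, chr3:128242405-128242830, lay 30574 bp upstream of the gene. Its scores were 72.6 and 102.7 in control replicates 1 and 2, at percentiles 28.7 and 57.6, and it held PU.1, CEBP and MYB motifs but no GATA motif. The ZBTB16 regions, upstream of a zinc finger transcription factor gene, lay 29678, 32474 and 64446 bp upstream. Their mean percentiles were 29.5, 15.8 and 37.5, and none held any of the 14 motifs. The highest percentile of these 4 regions in either control list was 59.3. Within 100 kb of a GATA2 TSS on either side lay 2 lost regions, the second 66441 bp away at a mean percentile of 23.4. Neither held a GATA motif, and 2 gained and 0 kept intergenic regions lay in the same range.

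The 1270 lost regions had 1065 different nearest protein-coding genes. Of these, 909 had 1 lost region, 119 had 2, 28 had 3 and 9 had 4 or more. TSN, which encodes the nucleic acid binding protein translin, had 6, between 392417 and 998530 bp away, GPC5, a glypican gene, had 5, and BCHE (butyrylcholinesterase), C4orf33, CSMD3, ITGA4, METTL4, PCDH7 (a protocadherin) and SNTB1 (a syntrophin) had 4 each. Several of these genes were far from their lost regions. Those of PCDH7, each with a GATA motif, lay 1039573 to 2577901 bp away. All 4 at CSMD3 also held GATA, as did 3 of 4 at BCHE and at METTL4, and 0 of 4 at ITGA4.

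The promoter peaks of the nearest genes were much like those of all protein-coding genes. A promoter peak was present in all 4 lists for 477 of the 1065 genes (44.8%) and in no list for 446 (41.9%), compared with 42.6% and 43.1% of all protein-coding genes. It was present in both control libraries and neither ATRA library for 4 (0.376%, 0.146 to 0.962). The 0.303% of all protein-coding genes lay within this interval. The 4 genes were GIMD1, IRS1, an adaptor of insulin receptor signalling, TRIB1, a pseudokinase, and TRIM14. The promoter of TRIB1 lay 178787 bp from the nearest of its 3 lost regions, and that of TRIM14 lay 1028 bp from its lost region, the shortest distance in the class. For 23 genes (2.16%) the promoter peak was in both ATRA and neither control library, against 2.20% of all genes.

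Genes were also taken from lists of blood cell genes and called near when a lost intergenic region lay within 100 kb of a TSS, which was so for 8.59% of all protein-coding genes. Of all protein-coding genes 22.8% were near a gained and 42.9% near a kept intergenic region in the same sense. Of 20 progenitor genes 6 (30.0%) were near a lost region. These were MYB, MYC, GATA2, GFI1 and CEBPA, which encode transcription factors, and MPO, the gene of myeloperoxidase. The MYB region, 7623 bp away at a mean percentile of 45.3, and the MYC region, 73313 bp away at 18.0, both held GATA, as did the MPO region. The CEBPA region lay 47960 bp away at 65.8 and the GFI1 region 68715 bp away at 11.5, and neither held GATA. The lost regions near GATA2 held none either. Of these 20 genes 10 (50%) were also near a gained and 11 (55%) near a kept region.

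Of 14 GATA factors and partners 3 (21.4%) were near a lost region, namely GATA2, TAL1 and CBFA2T3. Near a gained region were 6 (42.9%) and near a kept region 8 (57.1%). The region 7198 bp from TAL1, which encodes a partner of GATA factors, ranked at 61.3 and held GATA. The region 1695 bp from a TSS of CBFA2T3, a corepressor gene, ranked at 71.6 and held none, and the promoter of CBFA2T3 had a peak in both ATRA libraries and neither control library. Of 18 genes of mast cells, basophils, eosinophils, megakaryocytes and erythroid cells 3 (16.7%) were near a lost region. Near a gained region were 8 (44.4%) and near a kept region 9 (50.0%). The 3 genes were MS4A2, a subunit of the high-affinity IgE receptor, EPX, eosinophil peroxidase, and PRG2, eosinophil major basic protein. The EPX region lay 1404 bp away and is the same region as that of MPO, at a mean percentile of 25.6. PRG2 had a promoter peak in both control and neither ATRA library, and its lost region was 42185 bp away.

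Of 20 neutrophil maturation genes 1 (5.00%) was near a lost region, LTF, which encodes lactoferrin, while 12 were near a gained region and 14 near a kept region, against the 22.8% and 42.9% of all genes. Of 12 retinoid response genes 1 (8.33%) was near a lost, 4 (33.3%) near a gained and 6 (50.0%) near a kept region. The gene near a lost region was CD38, which encodes a cell surface enzyme that ATRA is known to induce in these cells. Its lost region lay 51748 bp away at a mean percentile of 44.5 and held GATA, with 5 kept regions in the same range. The lists are short and were drawn up with earlier results of these data known, so these counts are descriptions.

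By chromosome, the lost regions ranged from 0.879% (0.376 to 2.04) of the intergenic regions of chromosome 19 to 4.52% (3.72 to 5.47) of those of chromosome 3. The intervals of chromosome 19, with 5 lost regions among 569, and of chromosome 21, with 5 among 371, lay below the 3.72% of the whole genome. That of chromosome 3 began at this value, and those of the remaining chromosomes included it.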

How the data were processed

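ATAC-seq maps open chromatin through insertion of adapters by the Tn5 transposase and was performed on 2 control and 2 ATRA-treated HL-60 libraries, grouped by their titles. The submitters' processing notes name cutadapt, Bowtie2 and MACS2, and the methods name Bowtie, MACS2 and hg19. The deposited files list, for each library separately, the position of each peak and a score given by the authors' peak caller, from 50.0 to 3100, whose scale is not given in the sources used here. Scores served only to rank peaks within a list. Offsetting of reads for Tn5, duplicate removal and filters on repeats are not given in the sources used here, so region centres may be offset by some bases and some regions may be repeats. A deeper library can yield more and wider peaks.

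Peaks were merged in Python 3.11.15 (pandas 2.3.3, numpy 2.4.6, scipy 1.17.1), annotated with GENCODE release 44 on GRCh37 (78714 protein-coding TSS) and read from GRCh37 with samtools 1.23.1 and pysam 0.24.0. Figures were drawn with matplotlib 3.10.9. Coordinates are 1-based. Shares have 95% Wilson intervals, differences Newcombe intervals and medians order-statistic intervals. Scripts were tested on simulated data. The libraries were compared by an exact permutation test. Regions named were the 10 with the highest mean percentile, those at GATA2 and ZBTB16, the longest runs, the genes nearest to most regions and list genes within 100 kb, of which 2 of the highest-ranked regions are not reported here by name. Members, motifs and gene lists were chosen with earlier results of these data known.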

Additional observations from a re-analysis of the deposited data

How the results depend on the processing

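Under 112 alternative values, no difference between classes or groups turned its direction. The GC terciles were not among these values. In the middle GC tercile, lost intergenic regions held GATA less often than lost genic regions (-1.72 points, -8.55 to 5.12). The number of regions, the single shares and the median distance cannot be negative, so for them no turn was possible. Of the 98 for results with an interval or a count, 55 stayed within the interval (or, for counts, within 1.5 times) of the reported value and 43 moved beyond it. The number of lost intergenic regions was 618 with peaks of a score of at least 100, 1917 with an equal number of peaks per list and 844 with all annotated genes. Leaving out a library gave 1533 to 3538, with 3352 without ATRA replicate 2, 3538 without control replicate 1 and 3004 without control replicate 2. With an equal number of peaks per list the GATA share was 38.5% and the excess 24.0 points over gained and 19.7 over kept regions. With a motif window of 100 bp these were 29.7%, 22.7 and 19.6, with 400 bp 58.7%, 27.4 and 23.0, and in whole regions, where kept regions are wider, 56.3%, 22.6 and 8.49. Leaving out a library gave GATA shares of 31.7% to 46.5%, and excesses of 15.9 to 29.7 points over gained, 11.2 to 26.3 over kept and 1.46 to 3.63 over lost genic regions. Within terciles of score percentile, a comparison added after seeing the data, the excess over kept regions was 22.1 points in the lowest and 35.4 in the highest tercile. The PU.1 difference from gained regions was -5.61 to -2.60 points without single libraries, the latter without control replicate 2. The median TSS distance was 51591 bp with all annotated genes as gene bodies, 70819 bp with promoters of 5 kb upstream to 1 kb downstream, 14739 bp with the TSS of all annotated transcripts, and 59189 to 75352 bp without single libraries. The share within 50 kb of another lost region was 9.39% with scores of at least 100, 18.2% with equal lists, 15.9% with peaks of 200 bp and 16.1% to 28.2% without single libraries, and it was 8.50% for 20 kb and 19.8% for 100 kb. The control minus ATRA difference in the GATA share of all intergenic peaks was 3.77 to 6.74 points without single libraries and 0.396 points when whole peaks were searched, where p was 1.00 in the exact permutation test. With the replicate number as a block, the pairs differed by 6.65 and 3.87 points, a mean of 5.26 with an exact sign permutation p of 0.500, the smallest that 2 pairs allow. The labels give replicates only a number, so this pairing may not be real. The causes of these shifts were not tested. Depth was unknown, and with 2 libraries a group a region without a listed peak may still have been open below the score limit.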
